A study of Mus musculus with 4 samples.

Results

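Wild-type (WT) mouse cells were compared with and without stimulation, using 2 of the 4 RNA-seq libraries of the study: the library labelled WT unstimulated and the library labelled WT stimulated. The other 2 libraries came from cells of the Yap KO genotype and appear below only as values set beside the WT ones. All 4 libraries are of mouse spleen and lymph node; total RNA came from cultured cells, and the labels name an Illumina MiSeq. The labels give genotype WT for both libraries compared, and the stimulated title carries the number 24 with no unit. The sources used here give no stimulus, no isolated cell type, no number or age of animals and no time in culture for the unstimulated cells, so stimulation and time in culture cannot be told apart. Both titles carry replicate number 1, and each group holds 1 library. No difference below therefore has a replicate check, no test across samples was possible, and each value compares these 2 libraries.

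When a T cell receptor is engaged together with costimulation, calcium, MAP kinase and NF-kappaB signals switch on transcription factors within the resting lymphocyte. The cell then grows, takes up nutrients, runs glycolysis at a high rate, copies its DNA and divides, while genes that hold naive cells at rest and keep them circulating through lymph nodes are turned down. Activated CD8 T cells also make cytokines and load granules with granzymes that kill target cells.

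Reads in genes numbered 22088392 in the unstimulated and 20976343 in the stimulated library, and 3 reads, the limit that a count of 0 allows, correspond to 0.131 and 0.148 CPM (reads scaled to a library of fixed size). Genes took 35.6% and 38.3% of the entries counted, and at least 1 read fell in 21060 and 20357 genes. The stimulated library is the smaller, so equal read numbers correspond to a ratio slightly above 1. Mitochondrially encoded mRNAs took 1.07% and 0.822% of the reads in genes, and Lars2 was the gene with most reads in both, at 2.14% and 2.64%. The labels name the tissue and no cell type, so marker lists were read first. The 12 T cell markers were all read, and their summed level was 7435 and 3896 CPM. Cd8a had 18825 and 5538 reads, Cd8b1 had 30451 and 6812, and Cd4 had 0 and 1. The 3 CD4 T cell markers, Cd4 among them, summed to 407 and 447 reads, and the 4 regulatory T cell markers to 603 and 821. Of those tested, 1 of 2 CD4 and 2 of 4 regulatory T cell markers were at least 2-fold higher after stimulation, and none was lower. B cell markers summed to 1223 and 440.2 CPM, gamma-delta T cell markers to 315.9 and 30.6, NK cell markers to 58.4 and 56.5 (mostly Eomes, with 1184 and 1114 reads; list median -1.13), monocyte and macrophage markers to 26.1 and 18.2, and neutrophil markers to 4.03 and 0.0493 CPM. Plasma cell markers were 0.0957 times as high in sum after stimulation. Of the 9 neutrophil markers 3 were at 0 reads in the unstimulated and 8 in the stimulated library. In each library 8 of 10 stromal and endothelial markers were at 0, yet that list summed to 156.7 CPM before and 11.6 CPM after stimulation. Only 1 of the 10 had at least 20 reads over both libraries, so nearly all of that sum belongs to 1 gene. In bulk RNA, fewer cells of a type and less RNA per cell cannot be told apart, and the part that these other cells have in any result below was not tested.

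After a filter of at least 20 reads over both WT libraries, 15152 of 50686 genes remained. Ratios were scaled by TMM (a trimmed mean of ratios) and are given as log2 of stimulated over unstimulated with 2 reads added in proportion to library size. Levels and ratios are thus relative to the reads of each library and do not give amounts of RNA per cell. The bracketed ranges are exact 95% binomial intervals on the reads, which cover counting error only, since PCR reads without molecular identifiers are not independent molecules. A gene is called higher or lower here when its ratio reached 2-fold and its interval left out no difference. By that rule 3562 genes were higher, 23.5% of those tested, and 3651 were lower, 24.1%, which makes 47.6% either way. At 4-fold, 1514 were higher (9.99%) and 1611 lower (10.6%), 20.6% either way. The median log2 ratio over all genes was -0.02, and the quartiles lay at -0.96 and 0.93. Each count of list members below is to be read against these shares.

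**Figure D1:**
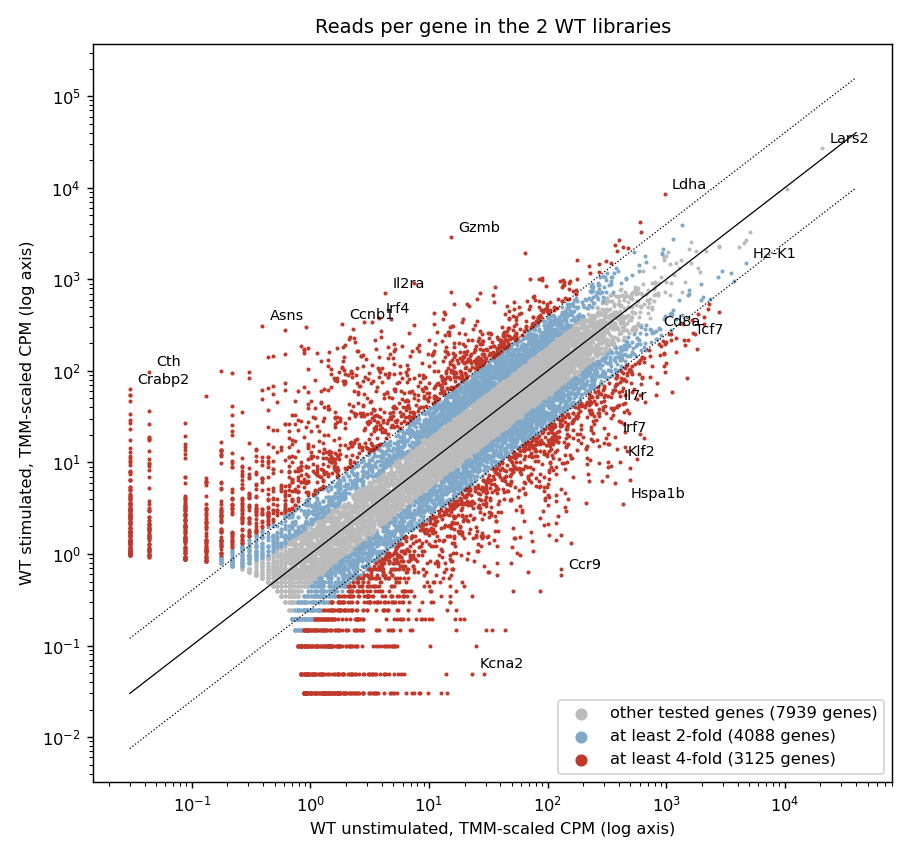
TMM-scaled CPM of every tested gene in the WT unstimulated (horizontal, log axis) and WT stimulated library (vertical, log axis), with genes at 0 reads drawn at the lowest value of their axis; the solid line marks equal levels and the dotted lines 4-fold differences. Red points are the 3125 genes that differed at least 4-fold, Gzmb and Ldha far above the line and Klf2, Ccr9 and Kcna2 far below it.

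The genes with the highest ratios differ in what they do, but several make, carry or break down amino acids. Cth, which makes cysteine from cystathionine (chr3:157894248-157925077 on GRCm38), had 1 read unstimulated and 1995 stimulated, a log2 ratio of 9.49 (8.65 to 16.44). Asns, asparagine synthetase, had 9 and 6300 reads (9.32, 8.70 to 10.75). Crabp2, a retinoic acid binding protein, had 0 and 1277 reads, at least 479-fold higher when the 0 is set at its limit of 3 reads. Likewise at 0 reads unstimulated were Slc6a9, a glycine transporter, with 1101 reads after stimulation, Dnph1, a nucleotide hydrolase, with 1094, Acsl6, an acyl-CoA synthetase, with 949, and Fads2, a fatty acid desaturase, with 693. Their lower bounds were 413-fold, 411-fold, 356-fold and 260-fold. Zbtb32, a zinc finger repressor, went from 14 to 5670 reads, Bcat1, which breaks down branched-chain amino acids, from 21 to 6149, Melk, a kinase of dividing cells, from 4 to 2015, and the growth factor gene Vegfa from 5 to 1913. All were high in the stimulated library and at or near the floor in the other. Together the 15 genes with the highest ratios took 0.000294% of the reads before and 0.162% after.

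The 15 lowest ratios include genes of unlike function, but not all of the 15 are separate. Hspa1a and Hspa1b are related heat-shock genes. Gm20481 lies within Hspa1a on the opposite strand, and Gm11775 spans Cd7 on the opposite strand. Ccr9, the receptor for the gut and thymus chemokine CCL25, had 2962 reads unstimulated and 12 stimulated, a log2 ratio of -7.57 (-8.73 to -6.97). Cd7, an immunoglobulin family surface protein, had 1959 and 8 reads (-7.46, -8.98 to -6.78). The potassium channel gene Kcna2 had 528 reads and 1 read, and Cacna2d4, an auxiliary calcium channel subunit, 566 and 2. Ampd1, an AMP deaminase, had 1165 and 8 reads, and Ggt1, which degrades extracellular glutathione, 1561 and 13. Each of these genes was well read in the unstimulated library and nearly absent from the reads of the stimulated one. Lrrc75b, which lies next to Ggt1 on chromosome 10 (chr10:75550123-75560330 and chr10:75561604-75586200 on GRCm38), had 668 reads and 1 read. Cd163l1, a scavenger receptor family gene of gamma-delta T cells, had 996 and 3 reads. It is itself 1 of the 9 gamma-delta markers, whose summed level was 0.0968 times as high after stimulation, so that sum contains it.

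**Figure D2:**
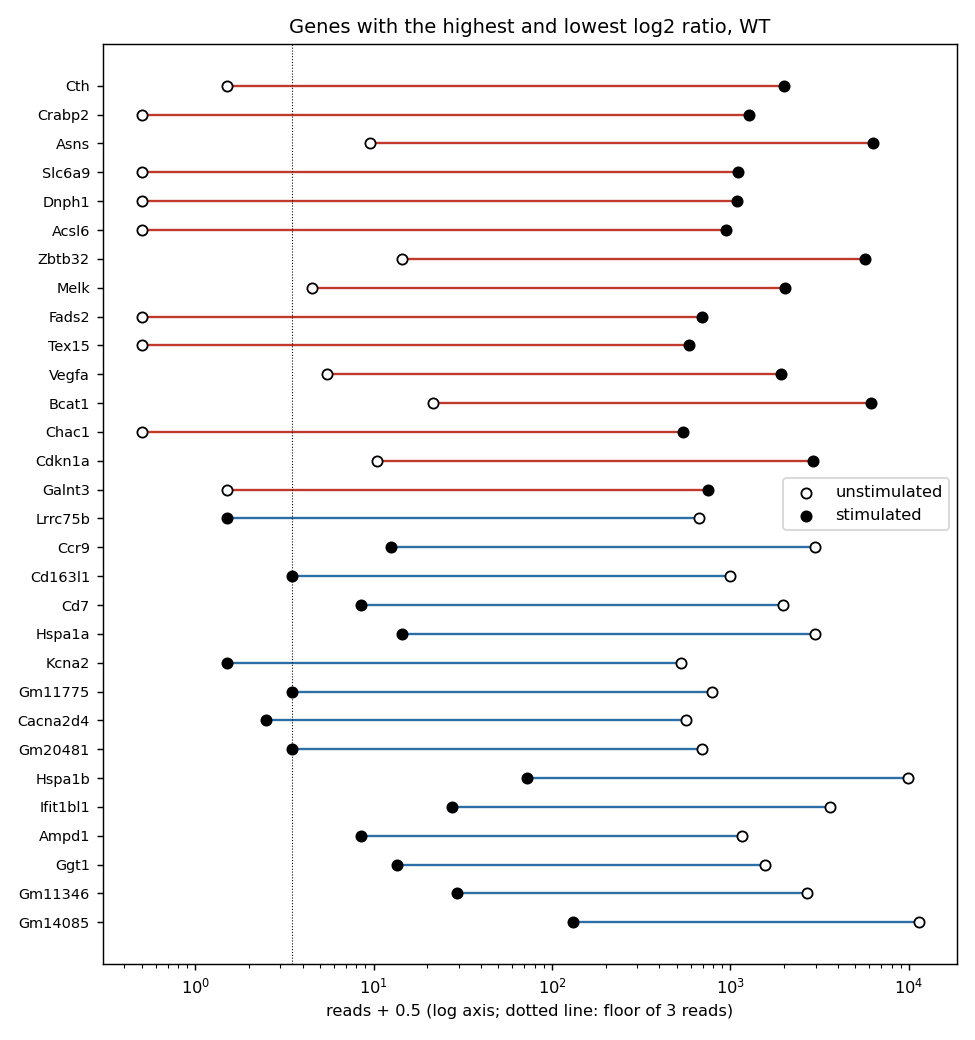
Reads plus 0.5 (log axis) of the 15 genes with the highest and the 15 with the lowest log2 ratio among genes averaging at least 10 CPM, open circles unstimulated and filled circles stimulated. Most of the higher genes start at or near the dotted line at the 3-read floor, and most of the lower genes end near it.

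Some genes were read almost solely in 1 of the libraries. The sets below were picked on these reads and overlap the genes with the highest and lowest ratios, so they are a description. With at most 3 reads in the unstimulated and at least 100 in the stimulated library there were 60 genes, 51 of them protein coding and 28 at exactly 0, with a median of 215.5 reads. They include Sema4c (3 and 1071 reads), a semaphorin, Aldh1l2 (0 and 358), a mitochondrial folate enzyme, Batf3 (1 and 360), a BATF family transcription factor, Psrc1 (1 and 379) and Kif14 (1 and 366), both proteins of the mitotic spindle, and Nupr1 (0 and 238), a stress-induced nuclear protein. In the other direction there were 43 genes, 27 protein coding and 13 at 0 after stimulation, with a median of 130 reads. Among these were Slpi, a protease inhibitor (192 and 0), Fgr, a SRC family kinase of myeloid cells (116 and 0), Tcrg-C1, a gamma T cell receptor constant segment (147 and 0), Pde2a, a cyclic nucleotide phosphodiesterase (125 and 1), and Epas1, which encodes HIF-2 alpha (159 and 3). The 60 genes together held 0.100% of the reads after stimulation and the 43 held 0.0451% before it. These examples were chosen after their values were seen.

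A different set of genes carried the bulk of the reads that moved. Ldha, the lactate dehydrogenase subunit that favours lactate formation (chr7:46841475-46855627), had the largest gain, from 22272 to 172387 reads, which is 0.101% and 0.822% of the reads in genes (log2 ratio 3.12, 3.10 to 3.14). Gapdh went from 13745 to 86873 reads, and Gzmb, granzyme B, from 353 to 58285, a log2 ratio of 7.53 (7.39 to 7.69). Ncl, Hsp90ab1, Pkm, Tuba1b, Tpi1, Eno1, Eif5a and Aldoa also ranked among the 12 largest gains, so that 6 of the 12 are glycolytic enzymes. The 12 genes held 2.73% of the reads unstimulated and 6.15% stimulated. Lars2, the remaining one, had 472239 and 552770 reads, a log2 ratio of 0.40, which is within 2-fold. In Yap KO the ratio of Lars2 was 0.01. In WT Lars2 alone took 2.14% of the reads before and 2.64% after, most of the summed share before stimulation. What these reads come from was not tested.

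Among the 12 largest losses were the class I MHC genes H2-K1 (107359 and 30510 reads) and H2-D1 (103414 and 50140), the leukocyte phosphatase Ptprc (67723 and 24720), the actin crosslinker Flna (47242 and 6678) and the nuclear RNA Malat1 (51375 and 9524). Flna had a log2 ratio of -2.65. Together the 12 held 4.43% of the reads before and 1.68% after. The list also holds CT010467.1, annotated as ribosomal RNA, with 85393 and 19267 reads, and the neighbouring Gm42418 with 80360 and 23591, whose exons overlap it on the opposite strand. Gm26917, which lies beside them on chromosome 17 and is also on the list, had 117024 and 66405 reads. The part of ribosomal RNA carried into the libraries in these losses was not tested.

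Cell cycle genes were higher with few exceptions. All 25 DNA replication genes tested and all 25 mitosis genes were higher, against 23.5% of all genes, with median log2 ratios of 3.22 and 5.71 against -0.02. Mitosis genes took 0.0185% of the reads unstimulated and 0.477% stimulated, a summed level 27.6 times as high. Replication genes went from 0.126% to 0.939%, 7.99 times as high.

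In the mitosis list, Bub1, a spindle checkpoint kinase, had 22 and 3603 reads (log2 ratio 7.39, 6.93 to 8.20). Ccnb1, cyclin B1, had 42 and 6552 reads (7.39, 7.02 to 7.93), and Aurkb, the kinase of the chromosomal passenger complex, 49 and 4712. Cdk1, the kinase that cyclin B activates, had 54 and 4147 reads. The proliferation marker Mki67 had 170 and 6434. The smallest ratios of the list were those of Cenpa, the centromeric histone H3 (510 and 2090 reads), and Kif23, a cytokinesis kinesin (569 and 2390), both still over 4-fold. Among replication genes, Rrm2, the ribonucleotide reductase small subunit, had 172 and 18730 reads (6.92, 6.72 to 7.16), and Cdc6, which loads the replicative helicase at origins, 52 and 5779 (6.91, 6.57 to 7.39). The helicase subunits themselves were abundant before stimulation, Mcm6 with 4067 and 20675 reads and Mcm2 with 2261 and 9674. Cdt1, the partner of Cdc6, had the lowest ratio of the list, with 1039 and 2266 reads (1.29).

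Genes of G1 followed less evenly: 11 of 14 were higher and 1 lower, with a median of 2.55. E2f8 (9 and 1005 reads) and E2f7 (12 and 461), the repressor members of the E2F family, had the highest ratios, ahead of Ccne2 (190 and 3915) and E2f1 (135 and 1688). The D-type cyclin genes Ccnd2 (12544 and 16710 reads, log2 ratio 0.58) and Ccnd3 (6130 and 7118, 0.39) stayed within 2-fold, and Ccnd1 had 24 and 7 reads. Inhibitors and pocket proteins went the other way as a group, 6 of 11 lower and 2 higher with a median of -1.93. Btg2, Tob1 and Btg1, antiproliferative proteins of 1 family, had 10278 and 910, 2450 and 283, and 24107 and 5102 reads. Against that direction, Cdkn1a, the p21 inhibitor, had 10 reads before and 2912 after (8.08, 7.48 to 9.42), while its relative Cdkn1b, p27, had 745 and 108 (-2.59, -2.92 to -2.32).

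The promoters of these genes hold short sequences that are known to bind cell cycle regulators, and the windows of a few are shown because replication and mitosis genes differ in them. The windows come from RefSeq on GRCm38.p6, run from 250 bases before to 50 bases from the start of each gene, and were searched on both strands; 21 of the 25 mitosis and 21 of the 25 replication genes matched a window. The cell cycle homology region, searched as TTTGAA, was in 15 of 21 windows of mitosis genes (71.4%), in 12% of windows of replication genes, in 12.4% of windows of all tested genes and in 17.9% of all 32851 windows. The E2F site, searched in the forms TTTGGCGC and TTTCCCGC, was in 20% of replication windows in each form, in none of the 21 mitosis windows, and in 0.961% and 2.04% of windows of tested genes. CCAAT was in 81% of mitosis and 60% of replication windows against 37.8% of tested windows. A match is a string of letters and not a shown binding site. In the sequences, written 5′ to 3′ on the strand of the gene, capitals mark the match, which reads TTCAAA, GCGCCAAA or GCGGGAAA where it lies on the other strand.
Cdk1, minus strand, chr10:69352888-69352983: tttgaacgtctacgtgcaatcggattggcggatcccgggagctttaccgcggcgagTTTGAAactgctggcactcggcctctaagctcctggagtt
Top2a, minus strand, chr11:99024165-99024268: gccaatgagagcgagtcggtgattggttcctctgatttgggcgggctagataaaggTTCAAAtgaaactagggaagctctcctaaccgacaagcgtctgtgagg
Ccnb2, minus strand, chr9:70421530-70421606: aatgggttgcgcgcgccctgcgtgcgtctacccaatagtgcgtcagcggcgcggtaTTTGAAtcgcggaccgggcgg
Mcm6, minus strand, chr1:128359689-128359808: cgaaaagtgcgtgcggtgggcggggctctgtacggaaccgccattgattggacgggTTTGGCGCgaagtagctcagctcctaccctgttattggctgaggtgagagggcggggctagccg
Pola1, minus strand, chrX:93632230-93632349: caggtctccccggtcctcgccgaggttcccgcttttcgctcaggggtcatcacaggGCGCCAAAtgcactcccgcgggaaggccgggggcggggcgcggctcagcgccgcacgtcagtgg
Cdc6, plus strand, chr11:98907957-98908076: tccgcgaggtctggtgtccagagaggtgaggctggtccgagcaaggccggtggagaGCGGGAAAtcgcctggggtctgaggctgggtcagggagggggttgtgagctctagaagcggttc

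Counting the base before the start of the gene as -1, the match in capitals begins at -15 in Cdk1, at -23 in Top2a and at 5 in Ccnb2, and at -47 in Mcm6, -138 in Pola1 and -138 in Cdc6. Cdk1 holds another match at -71, in lower case at the left end of the sequence shown, and Top2a, Ccnb2 and Mcm6 hold another each, at -179, -167 and -110, outside the stretch shown. Top2a, the topoisomerase of mitotic chromosomes, had 353 and 14837 reads, Ccnb2, cyclin B2, 28 and 939, and Pola1, the catalytic subunit of DNA polymerase alpha, 446 and 3961. Over all genes at least 4-fold higher the letters TTTCCCGC stood in 3.60% of windows against 0.781% of those at least 4-fold lower, and TTTGAA in 17.2% against 12.7%.

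Of the metabolic lists, glycolysis took the largest share of reads after stimulation. Of its 16 genes 13 were higher and none lower, with a median log2 ratio of 2.40, and its share of the reads went from 0.396% to 2.53%. Hk2, the inducible hexokinase, had 26 and 3174 reads (6.99, 6.55 to 7.72). Tpi1, triose phosphate isomerase, had 1461 and 39392 reads (4.92), and Pgam1, phosphoglycerate mutase, 1006 and 8508. Pfkl and Pfkp, subunits of the committing enzyme phosphofructokinase, had 3206 and 12638 and 5193 and 23821 reads. Hk1 (0.33), Pfkm (0.18) and Ldhb (-0.54) stayed within 2-fold. The pentose phosphate pathway reached less far: 3 of 7 genes were higher, led by Tkt, transketolase (3278 and 7722 reads), and none lower. Of 18 genes of the TCA cycle and its entry, 4 were higher, a share near the 23.5% over all genes. None was lower, against 24.1% of all genes, and the median was 0.63. The 4 were Fh1 (743 and 2129 reads), Idh3a (2327 and 6183), Mdh2 (4524 and 10514) and Sdhb (2872 and 5180). Pdk1, the kinase that shuts pyruvate dehydrogenase, had 10144 and 4765 reads, a log2 ratio of -0.92.

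**Figure D3:**
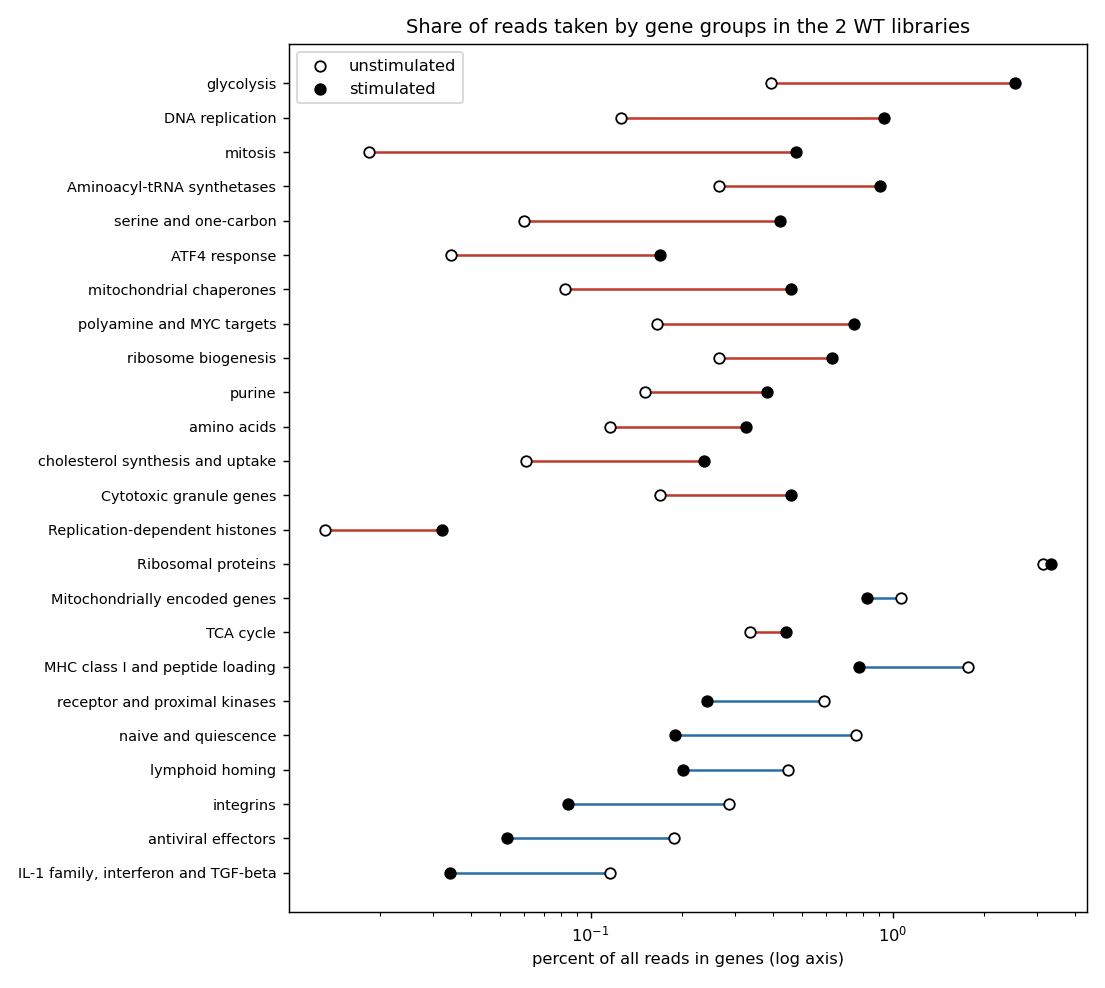
Percent of all reads in genes (log axis) taken by the summed members of selected gene groups, open circles unstimulated and filled circles stimulated, with red lines for higher and blue lines for lower shares. Glycolysis moved from 0.396% to 2.53% and mitosis from 0.0185% to 0.477%, while ribosomal protein genes stayed at 3.14% and 3.35%.

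Nutrient transporters were higher in 15 of 24 genes and lower in none. Slc16a3, the lactate exporter MCT4, had 20 reads before and 3215 after (7.36, 6.87 to 8.21). Slc7a3, a cationic amino acid transporter, had 7 and 1990 reads (7.94, 7.28 to 9.64). Slc7a5 and Slc3a2, the light and heavy chains of the large neutral amino acid transporter, had 1756 and 13409 reads and 3487 and 10536. Tfrc, the transferrin receptor that brings in iron, had 1940 and 20681 reads (3.58, 3.52 to 3.65), and the folate carrier Slc19a1 735 and 4631. Slc2a3, Slc38a1, Slc38a2 and Slc7a6 were between 0.51 and 0.88 on the log2 scale.

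Every one of the 24 genes of serine synthesis, one-carbon metabolism and the ATF4 response was higher, with a median of 2.75. Psat1, an enzyme of serine synthesis, had 613 and 14294 reads (4.71, 4.60 to 4.83), and Mthfd2, the mitochondrial one-carbon enzyme, 812 and 11589 (4.00, 3.90 to 4.11). The 9 serine and one-carbon genes took 0.0599% of the reads before and 0.423% after. ATF4 is a transcription factor whose translation increases under amino acid shortage and other stress, and which drives amino acid genes. Its own gene Atf4 had 3491 and 8215 reads (1.41). Of the genes it is known to control, Chac1, which degrades glutathione, had 0 and 543 reads, at least 204-fold higher, and Pycr1, an enzyme of proline synthesis, had 5 and 673 (6.74, 6.01 to 8.87). Trib3, a pseudokinase that feeds back on ATF4, had 104 and 2805 reads, and Sesn2, a leucine sensor, 153 and 2138. Ddit3, the stress factor CHOP, was closer to its starting level, with 545 and 1412 reads.

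Letters of the ATF4 composite element, TGATGNAA, stood in the promoter windows of 5 of 14 matched ATF4 response genes, Asns, Chac1, Pycr1, Trib3 and Vldlr, which is 31.2% of 16 windows. None of the 9 windows of serine and one-carbon genes held them, against 2.43% of windows of tested genes and 3.97% of all windows. Windows of the 3 genes with the highest ratios among the 5 follow, with the match in capitals, which reads TTGCATCA in Chac1, where it lies on the other strand.
Asns, minus strand, chr6:7693185-7693288: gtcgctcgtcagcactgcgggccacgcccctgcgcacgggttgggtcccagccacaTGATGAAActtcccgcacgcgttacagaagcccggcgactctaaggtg
Chac1, plus strand, chr2:119350993-119351112: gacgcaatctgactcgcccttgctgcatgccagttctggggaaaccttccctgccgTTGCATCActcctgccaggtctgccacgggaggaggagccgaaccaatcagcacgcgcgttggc
Pycr1, minus strand, chr11:120643788-120643907: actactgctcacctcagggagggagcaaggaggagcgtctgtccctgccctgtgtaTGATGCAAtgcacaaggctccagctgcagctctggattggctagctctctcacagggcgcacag

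The matches begin at -23 in Asns, -193 in Chac1 and -103 in Pycr1.

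Cytosolic aminoacyl-tRNA synthetases, which charge tRNAs for translation, were higher in 18 of 20 genes and lower in none, with a median of 1.88. Aars, the alanine enzyme, led with 1540 and 11689 reads (3.09, 3.02 to 3.17), and Gars, the glycine enzyme, had 3166 and 17436. Qars (2018 and 2108 reads, log2 ratio 0.23) and Vars (9083 and 11632, 0.53) were the 2 that stayed within 2-fold. Their summed share was 0.265% before and 0.907% after.

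Cholesterol synthesis and uptake was higher in 18 of 21 genes and lower in none (median 2.16). Cyp51, lanosterol demethylase, had 363 and 6238 reads (4.27, 4.12 to 4.43), and Sqle, squalene epoxidase, 377 and 3055. Srebf2, the transcription factor of the pathway, had 3879 and 4335 reads (0.33). Of 5 genes of the sterol efflux list 3 were lower and 1 higher. Abca1 and Abcg1, cholesterol exporters, had 859 and 93 and 2223 and 316 reads, and Mylip, a ubiquitin ligase, 1476 and 91 (-3.82, -4.17 to -3.54). Nr1h3, the sterol-sensing receptor LXR alpha, was the 1 that was higher, with 6 and 29 reads, and Nr1h2 was at -0.01, or 0.01 with DESeq2 size factors. In fatty acid synthesis 4 of 10 genes were higher, all of them desaturases: Fads2, Scd2 (789 and 13748 reads, 4.29), Scd1 (33 and 224) and Fads1 (266 and 1035). The chain-building enzymes Fasn (6155 and 6708 reads, 0.30) and Acaca (982 and 1668, 0.93) were within 2-fold. The sterol regulatory element, searched as TCACNCCAC, was found in 1 of 17 cholesterol windows, that of Hmgcs1, and in 1.17% of tested windows.

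Purine and pyrimidine synthesis was higher in 18 of 23 genes and lower in 1. Dut, which removes dUTP, had 558 and 6384 reads (3.68, 3.56 to 3.81), Pfas, an enzyme of purine ring assembly, 405 and 2445, and Ctps, CTP synthase, 957 and 5155 (2.60). Its paralog Ctps2 was the gene that was lower, with 3305 and 784 reads (-1.90, -2.02 to -1.79).

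All 7 polyamine genes and MYC-linked growth genes were higher, among them Srm, spermidine synthase (1715 and 12880 reads, 3.08), Odc1, ornithine decarboxylase (3086 and 20091, 2.87), and the nucleolar protein gene Npm1 (12149 and 39841). Of 24 ribosome biogenesis genes 17 were higher and none lower, between 0.76 and 2.47 on the log2 scale with a median of 1.22. Nop16 (754 and 3715 reads) had the highest ratio, Gar1, of the pseudouridylation particles, had 430 and 1780 reads, and Noc2l (5285 and 7927) and Polr1b, a subunit of RNA polymerase I (2041 and 3507), did not reach 2-fold. The ribosomal protein genes themselves stayed near their starting share of the reads, 3.14% and 3.35%. Of 82 tested, 5 were higher and 1 lower, with a median of 0.22. The E-box CACGTG, a sequence MYC can bind, stood in 20.7% of the 29 windows of ribosome production genes and in 9.91% of tested windows.

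Chaperone genes were higher in 26 of 35 and lower in 4. All 6 mitochondrial ones were higher (median 2.50), with Hspd1 at 4065 and 33286 reads (3.20) and its partner Hspe1 at 1315 and 10204. In the endoplasmic reticulum 13 of 16 were higher, led by Sdf2l1 (319 and 3693 reads, 3.70), and Dnajb9, an ER stress cochaperone, was lower with 2672 and 351 (-2.75). In the cytosol 7 of 13 were higher, among them the chaperonin subunits Tcp1 (6346 and 21303 reads) and Cct5 (7282 and 23767). Within the cytosolic list the stress-inducible HSP70 genes went the other way: Hspa1b had 9942 reads unstimulated and 72 stimulated (-6.90, -7.29 to -6.60), and Hspa1a 2972 and 14. Dnajb1, another heat-inducible gene, had 7358 and 2092 reads, while the constitutive HSP70 gene Hspa8 had 37302 and 52499 (0.66).

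Transcription factors are given by role. In the AP-1, BATF and EGR group 5 of 13 were higher and 6 lower. Atf3 had 19 and 3762 reads (7.65), and Batf3 1 and 360. The early-response genes were high in the unstimulated library and low after stimulation: Fos had 10644 and 268 reads (-5.13, -5.32 to -4.97), Jun 19055 and 1478 (-3.52), Fosb 251 and 10, and Egr1 2716 and 747. Egr2 went the other way, with 254 and 694 reads. Batf itself, with 804 and 1007 reads, was within 2-fold. Of the NR4A receptors, which T cell receptor signals induce, Nr4a3 had 157 and 2985 reads (4.40), Nr4a2 150 and 1825 and Nr4a1 727 and 3031, whereas Nfatc2 (2083 and 466), Nfatc3 (9353 and 2953) and Tox (1690 and 489) were lower.

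In the growth and IRF group 5 of 6 were higher and none lower. Irf4, which scales with receptor signal strength, had 86 and 7647 reads (6.61, 6.34 to 6.97), and Irf8 368 and 10895 (5.05, 4.91 to 5.21). Bhlhe40, a regulator of cytokine output, had 304 and 8869 reads, and Myc 3196 and 9192 (1.69). Among NF-kappaB genes Rel (1170 and 3181), Nfkb2 (1627 and 4383) and Nfkb1 (2695 and 5474) were higher, while Rela and Relb had log2 ratios of 0.03 and 0.06, which became -0.07 and -0.04 when libraries were scaled by their totals. Tbx21, which encodes T-bet, had 394 and 2694 reads (2.94, 2.79 to 3.10) and was the sole effector or lineage factor of 12 called higher; Maf (96 reads and 1 read), Gata3 (993 and 140), Id2 (3105 and 638) and Runx1 (671 and 168) were lower. Eomes, with 1184 and 1114 reads, was at 0.08. The naive and quiescence factors were lower in 10 of 16 and higher in none, with a median of -1.62. Klf2, which keeps T cells quiescent and circulating, had 9337 and 207 reads (-5.31, -5.53 to -5.13), Tcf7 34830 and 4447 (-2.80), Ets1 40271 and 5079 (-2.82) and Lef1 13461 and 1865 (-2.68).

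Many signalling genes of the receptor were lower. Of 10 genes of the receptor and its proximal kinases 6 were lower, and of 11 adaptors and effectors 7, with none higher in either group. Cd3e had 20647 and 5023 reads (-1.87) and Cd3g 14353 and 2902 (-2.13), while Zap70, the kinase that binds the receptor chains, had 3929 and 2735 (-0.35). Rasgrp1, which activates Ras, had 9883 and 1625. Genes that restrain the signal were not uniform: Dgka, which removes diacylglycerol, had 41562 and 3562 reads (-3.37, -3.42 to -3.32), and Cblb, a ubiquitin ligase, 2879 and 6433 (1.33, 1.27 to 1.39). Feedback genes were divided too. Spry1 (97 and 1892 reads), Dusp4 (37 and 730), Dusp5 (909 and 3741), Cish (266 and 5346) and Socs2 (18 and 270) were higher, and Dusp1 (10204 and 431), Dusp6 (3038 and 525), Tnfaip3 (10595 and 2370) and Socs3 (2801 and 791) were lower.

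Of 24 cytokine genes with enough reads 17 were higher and 4 lower. Ifng had 114 and 2779 reads (4.75, 4.51 to 5.06), Lif 40 and 1959 (5.71, 5.33 to 6.27), and Tnfsf11, which encodes RANKL, 17 and 958 (5.82, 5.30 to 6.77). Il2 had 2 and 228 reads (5.97, 5.13 to 10.06). The type 17 cytokine genes were read at low levels: Il17a had 0 and 44 reads, at least 16.5-fold higher, and Il17f 4 and 199. Il4, Il5, Il9 and Il13 had at most 1 read in either library. Tnf, with 579 and 451 reads, was at -0.19. Ltb, lymphotoxin beta, was lower, with 10779 and 757 reads (-3.66, -3.77 to -3.55), as was Il16, with 9366 and 2664. Among chemokines, Ccl3 (87 and 2100 reads), Ccl4 (328 and 3084), Xcl1 (73 and 938), Ccl9 (7 and 329) and Ccl22 (10 and 232) were higher, and Ccl5 was lower, with 1945 and 126 (-3.76, -4.05 to -3.52).

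Cytotoxic granule genes were 4 higher and 4 lower of 11, with Gzmb supplying most of their 0.460% of reads after stimulation, up from 0.170%. Serpinb9, the inhibitor that protects cells from granzyme B, had 825 and 16842 reads (4.52, 4.42 to 4.63), and the related Serpinb6b 340 and 5441. Gzmc had 0 and 33 reads, at least 12.4-fold higher, and Gzmd, Gzme and Gzmg had none in either library. Other granzymes were lower: Gzma had 387 and 21 reads (-3.92), Gzmm 153 and 17, and Gzmk 95 and 0, at least 28.1-fold lower. Prf1, perforin, had 2382 and 1359 reads (-0.64, -0.74 to -0.54). The cysteine protease gene Ctsw had 13873 and 414 (-4.89, -5.04 to -4.75).

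Receptors for cytokines were lower in 14 of 26 and higher in 4. Il2ra, the subunit that gives the IL-2 receptor high affinity, had 98 and 14272 reads (7.33, 7.07 to 7.66), and Il12rb2 251 and 8612 (5.26). Il15ra (379 and 1556 reads) and Il12rb1 (401 and 1732) were the other 2 called higher. Il7r, the survival receptor of naive cells, had 8779 and 841 (-3.21, -3.32 to -3.11), Il6ra 4868 and 194 (-4.46), Il18r1 1112 and 79 (-3.61) and Tgfbr2 8362 and 788 (-3.23). Il2rb, with 5818 and 8103 reads (0.65), was within 2-fold.

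Homing and adhesion genes were lower in 22 of 31. S1pr1, the receptor by which lymphocytes leave lymph nodes, had 12873 and 220 reads (-5.69, -5.90 to -5.51). Itgae, the CD103 integrin chain, had 2787 and 53 (-5.50), and Itgb7, which pairs with it, 25554 and 1194 (-4.25). Integrins were lower in 8 of 10, with a median of -3.23, or -2.94 when genes at 0 reads are set at their bounds. The 5 genes called higher were the lymph node chemokine receptor Ccr7 (15416 and 31592 reads; 1.21, 1.18 to 1.23), Ccr8 (0 and 81, at least 30.4-fold), Ccr4 (19 and 186), Ccr6 (16 and 56) and the beta1 integrin Itgb1 (2450 and 6863, 1.66). Gamma-delta and B cell markers, at lower summed levels after stimulation, move with these genes, and their part was not tested.

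Among costimulatory and inhibitory receptors a few genes had ratios far above the list medians of 0.75 and 0.62. Tnfrsf4, which encodes OX40, had 53 and 4670 reads (6.58, 6.24 to 7.05), and Tnfrsf9, 4-1BB, 311 and 8564 (4.94, 4.79 to 5.12). Ctla4 had 76 and 7013 reads (6.66, 6.37 to 7.04), Cd200 109 and 7437, Lag3 34 and 1896, and Pdcd1, PD-1, 74 and 1481 (4.46). The inhibitory receptors Vsir (8713 and 814 reads, -3.25) and Cd96 (9244 and 1091, -2.91) were lower, as were the costimulatory Slamf6 (5432 and 1045) and Cd27 (4543 and 1963). In counts, 5 of 11 costimulatory genes were higher and 2 lower, and 6 of 13 inhibitory genes were higher and 3 lower.

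Interferon-stimulated genes were lower in 29 of 46 and higher in 3, against 24.1% and 23.5% of all genes, with a median of -1.54. Among antiviral effectors 14 of 19 were lower. Ifit3 had 4793 reads unstimulated and 74 stimulated (-5.81, -6.20 to -5.52), Ifit1 5534 and 582 (-3.07), Oas2 3255 and 60 (-5.55) and Mx1 1837 and 138. Sensors and factors were lower in 8 of 13, among them Irf7, the amplifier of type I interferon (8533 and 385 reads, -4.29), Ddx58, the RNA sensor RIG-I (5914 and 361, -3.86), and Rtp4 (2682 and 90). Isg15, with 948 and 724 reads (-0.22), and Stat2, with 2841 and 2355 (-0.10), stayed near their starting level. The guanylate-binding and immunity-related GTPases were divided. Gbp5 had 640 and 3129 reads (2.46, 2.34 to 2.59) and Igtp 6023 and 10083 (0.91), while Gbp9 had 13821 and 1117 (-3.46, -3.55 to -3.37) and Gbp8 4345 and 475.

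The interferon-stimulated response element stood in 22 of 38 windows of the 32 matched genes (57.9%), against 3.25% of tested and 3.44% of all windows. It was in 9 of 10 windows of the GTPases and in 10 of 18 windows of antiviral effectors. Windows of 2 genes that were lower and 1 that was higher are shown, because all 3 hold the element within 165 bases before the start; capitals mark the match, searched on both strands.
Ifit3, plus strand, chr19:34583351-34583472: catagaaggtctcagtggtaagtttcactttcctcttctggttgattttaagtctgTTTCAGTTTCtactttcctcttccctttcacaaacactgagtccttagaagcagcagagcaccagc
Ifit1, plus strand, chr19:34640748-34640869: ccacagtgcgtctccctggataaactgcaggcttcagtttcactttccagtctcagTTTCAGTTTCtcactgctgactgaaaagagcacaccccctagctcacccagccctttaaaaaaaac
Gbp5, plus strand, chr3:142496713-142496834: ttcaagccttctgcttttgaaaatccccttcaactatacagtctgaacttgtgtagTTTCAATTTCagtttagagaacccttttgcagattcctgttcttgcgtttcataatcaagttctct

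The match in capitals begins at -122 in Ifit3, -85 in Ifit1 and -165 in Gbp5. Ifit3 and Ifit1 hold another match each, at -156 and -104, which stands in lower case in the windows shown. Among genes at least 4-fold lower, 4.53% of windows held these letters, and among those at least 4-fold higher 3.04%.

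Antigen presentation was lower in 12 of 20 genes and higher in none. B2m, the class I light chain, had 61934 and 21379 reads (-1.36, -1.39 to -1.34), and Psmb10, an immunoproteasome subunit, 3070 and 798 (-1.77). Tap1, the peptide transporter, had 8649 and 8832 (0.20). Class II genes had few reads, 0.0180% and 0.00815% of the libraries. H2-Aa had 320 and 58 and H2-Ab1 619 and 533, beside B cell markers whose summed level was 0.360 times as high after stimulation; their part was not tested.

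In the BCL2 family 4 of 7 survival genes were higher and none lower: Bcl2l1, which encodes BCL-XL, had 448 and 2446 reads (2.61, 2.47 to 2.77) and Bcl2a1d 45 and 486 (3.54). Bcl2 (7895 and 4826 reads, -0.54) and Mcl1 (13312 and 6786, -0.80), with many more reads, stayed within 2-fold, so the list's summed level was 0.763 times as high although its median was 2.50. Of 9 death genes tested 3 were higher and 1 lower, with a median of 0.34. Bax, with 943 and 2268 reads (1.44), was higher, and Bcl2l11, BIM, with 1408 and 1102 (-0.18), stayed within 2-fold. Among ion channels and calcium handling genes 8 of 21 were lower and 2 higher. Orai2, a store-operated calcium channel subunit, had 7538 and 323 reads (-4.37), P2rx7, the ATP-gated channel, 349 and 12 (-4.49), and Kcnk5, a potassium channel, 78 and 483 (2.77). Orai1, the main T cell store-operated channel, had 700 and 1070 (0.78).

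Lectin-like NK receptors on T cells were lower in 7 of 9 genes. Klrd1, CD94, had 3690 and 226 reads (-3.85, -4.06 to -3.66), and Klrk1, NKG2D, was the 1 that was higher, with 646 and 1630 (interval 1.37 to 1.64). NK cell markers had a summed level 0.967 times as high, but 1184 of their 1334 and 1114 of their 1146 reads were those of Eomes, which T cells also express. Of the 4 NK markers tested 2 were lower, Klrb1c with 50 reads and 1 read and Klre1 with 75 and 24, the list median was -1.13, and Ncr1 had 2 and 0 reads. Their part in the lower receptor genes was not tested. In chromatin genes, Uhrf1, which brings the maintenance methyltransferase to new DNA, had 496 and 10423 reads (4.56), and Dnmt1 itself 3532 and 10795 (1.78), while the demethylase Tet1 had 579 and 36 (-3.77). Chaf1a (136 and 3822 reads), Hells (345 and 6168) and Asf1b (198 and 2500), which supply or remodel nucleosomes behind the fork, were higher. Replication-dependent histone genes were higher in 35 of 52 and lower in 5 (median 2.75), with Hist1h3c at 0 and 289 reads, at least 108-fold higher; single histone genes are uncertain because many copies are near-identical. Mitochondrially encoded mRNAs were lower in 1 of 13 and higher in none, with a median of -0.27.

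For 32 pairs of paralogs or alternative partners, chosen with earlier results known, reads per kilobase of exon were set side by side. The more abundant gene, taken from the share without its interval, differed before and after stimulation in 16 pairs. Among these, the interval included equal shares for Bcl2l1 after (49.1 to 51.5), S1pr4 after (49.1 to 58.8) and Itpr3 before stimulation (49.1 to 50.9). In 7 pairs the second gene was called higher while the first was called lower. Il2ra made up 0.903% (0.734 to 1.10) of the sum of Il7r and Il2ra before and 93.3% (92.8 to 93.7) after. Irf4 went from 0.770% to 93.9% of the pair with Irf7, and Cdkn1a from 1.69% to 97.2% of the pair with Cdkn1b. Ezh2, the Polycomb methyltransferase of dividing cells, went from 12.9% (11.8 to 14.1) to 92.4% (91.8 to 92.9) of the pair with Ezh1, and Top2a from 3.58% to 82.5% of the pair with Top2b. These pairs combine a gene called higher with one called lower.

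In other pairs only the second gene passed 2-fold. Hk2 went from 0.798% to 46.9% beside Hk1, Bcl2l1 from 10.2% to 50.3% beside Bcl2, and Ctla4 from 5.32% to 77.7% beside Cd28. Rrm2 went from 42.7% to 99.4% beside Rrm2b, which serves DNA repair outside S phase, and Impdh2 from 35.7% to 69.7% beside Impdh1. Where both genes were lower the balance could still move: S1pr4 was the less abundant of its pair with S1pr1 before and made up 54.0% (49.1 to 58.8) of it after, and Dgkz from 12.2% to 35.5% beside Dgka. In 5 pairs the share moved the other way, among them Id2, from 60.9% to 35.3% beside Id3, and Stim1, from 66.1% to 38.6% beside Stim2. Ccnd2 and Ccnd3 kept nearly the same balance, 65.6% and 68.6% Ccnd2, and Pfkp and Pfkl 44.7% and 48.4% Pfkp.

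**Figure D4:**
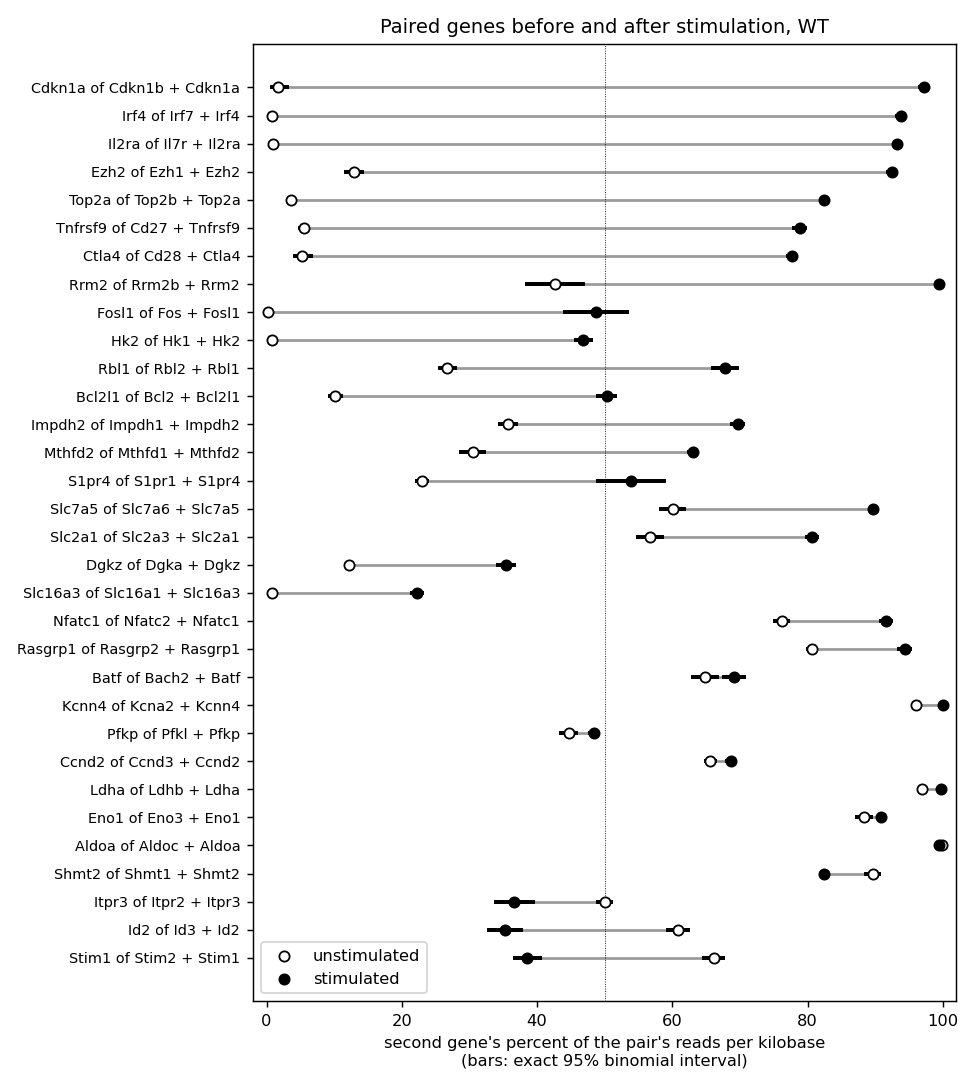
Percent of each pair's reads per kilobase that belonged to the second gene, open circles unstimulated and filled circles stimulated, bars giving exact 95% binomial intervals. Cdkn1a, Irf4 and Il2ra cross from under 2% to over 93%, while Stim1, Id2, Itpr3 and Shmt2 move to lower shares.

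The Yap KO libraries, which share no sample with the WT comparison, were read the same way. Of the 1414 genes at least 4-fold higher in WT and tested in both, 1109 (78.4%) were at least 4-fold higher in Yap KO, which is 85.6% of the 1296 such genes there. Over all 14538 genes tested in both, 8.91% were 4-fold higher and 11.3% 4-fold lower in Yap KO. Of 1478 genes 4-fold lower in WT, 1188 (80.4%) were 4-fold lower in Yap KO, 72.5% of its 1639. Over all genes tested, 12 differed at least 2-fold in opposite directions. With 1 library in each of the 4 groups, no difference between the genotypes could be tested.

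Reads of near-identical or overlapping genes limit several values. Of 521 genes looked up, 80 shared at least 20% of their 31-base words with other annotated transcripts, among them Hspa1a (70.1%), Hspa1b (68.1%), Ifit3 (61.8%), Pgk1 (54.7%), Tuba1b (78.7%), Phgdh (56.3%), Gapdh (28.1%) and Ccnb1 (27.8%). Also in that set are Hspd1, Hspe1, Chaf1a, Uhrf1, Impdh2, Il12rb2, Ifng, Odc1, Npm1, Pgam1, Pkm, Eno1, Ldhb, Acaca, Gbp8, Dusp5, Bcl2a1d, H2-K1, H2-D1, Tcrg-C1 and Hist1h3c, and the values of all these genes are uncertain. The sources used here do not give the strand setting of the counting, and 5312 of the tested genes (35.1%) have exons opposite another gene, among them Cdkn1a, Ccr9, Il12rb2, Spry1, Chaf1a, Jun, Irf7 and Slc6a9; reads of the 2 strands cannot be told apart for these.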

How the data were processed

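RNA-seq libraries of WT mouse cells were compared, 1 unstimulated and 1 stimulated. The members, gene lists and pairs were chosen with earlier results of these data known. Values are whole-number read counts per Ensembl gene, deposited by the authors as 1 table per library in the layout of HTSeq. The genome build was mm9, per the submitters' processing notes, while aligner, annotation and strand setting were not given in the sources used here. Rows that name no gene were set aside: reads in no feature made up 52.5% and 48.9% of the entries and unaligned reads 7.56% and 7.77%. Symbols were found for 50462 of 50686 genes, and coordinates come from GENCODE M21 and RefSeq on GRCm38, not from the build of the files.

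Genes with at least 20 reads over both WT libraries were scaled by TMM in edgeR 4.0.16 (R 4.3.3; factors 1.03 and 0.967), with a prior count of 2 for the log2 ratios. Intervals are exact 95% conditional binomial (Clopper-Pearson) intervals, computed with Python 3.11.15, numpy 2.4.6, pandas 2.3.3 and scipy 1.17.1, and the limit for 0 reads is 3 counts. With 1 library in each group no p-value was computed. The calls and intervals were tried on simulated reads with counting error only, few changed genes and a known library scale. That simulation did not test the TMM scaling or variation between replicates. Levels of paired genes were compared per kilobase of exon. Genes were named by rule: the 15 highest and 15 lowest log2 ratios among genes averaging at least 10 CPM, the 12 largest gains and losses in CPM, up to 6 members per list role with the largest ratios at a mean of at least 5 CPM, members at 0 or within 2-fold where needed, defining markers and all pairs. Genes read in 1 library only had at most 3 reads in one and at least 100 in the other. Alternatives were scaling by totals, by TMM over all libraries and by DESeq2 1.42.0 size factors, prior counts of 0.5 and 5, other read minimums, and leaving out genes opposite another gene. A few genes of the lists that stay in the counts and medians are not reported here by name.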

Additional observations from a re-analysis of the deposited data

Results flagged for a closer look

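St6galnac2, a sialyltransferase gene, was the named result in which both genotypes moved in opposite directions. In WT it had 1876 reads unstimulated and 514 stimulated, a log2 ratio of -1.69 (-1.84 to -1.56). In Yap KO it had 70 and 140 reads, a log2 ratio of 1.42 (1.02 to 1.88). With 1 library in each group the difference was not tested.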

How the results depend on the processing

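No paired analysis was possible because each group holds 1 library, and for the same reason no library could be left out. With a minimum of 200 reads, 10484 genes remained; 2145 were at least 2-fold lower, against 3651 before, and at 4-fold 889 were higher and 837 lower, against 1514 and 1611. Without genes opposite another gene 9801 remained, of which 2411 were lower. Fewer genes were tested by construction in both. Scaling by totals moved the median of all genes to -0.12 from -0.02 and gave 3255 higher and 3950 lower genes; DESeq2 size factors gave 3633 and 3587. No named gene called higher or lower changed sign under another scaling or prior count. Among genes not called, Impdh1 went from 0.08 to -0.01, Kcnn4 from 0.02 to -0.07 and the SOCS and NF-kappaB inhibitor median from 0.10 to -0.00075 with total scaling. List medians near 0 also moved with the genes kept: cytotoxic granule genes from -0.64 to 0.05 with a 200-read minimum, and AP-1, BATF and EGR genes from -0.75 to 0.49 without genes opposite another gene. Of 418 named genes, total scaling moved 157 beyond their counting interval, DESeq2 size factors 11 and a prior count of 5 13. Depth limits genes near 3 reads, where intervals span several log2 units.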

Other observations

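Most variable segments of antigen receptor genes were lower. Of 33 immunoglobulin V genes tested, all 33 were at least 2-fold lower, with a median log2 ratio of -3.51, and of 37 T cell receptor V genes 31 were lower and none higher, with a median of -1.81. Markers of B cells and plasma cells had summed levels 0.360 and 0.0957 times as high after stimulation, and their part was not tested. Long noncoding RNA was lower more often than protein-coding RNA in counts: 164 of 409 lincRNA genes and 310 of 868 antisense genes were lower, and 60 and 150 were higher, against 2481 lower and 2940 higher of 11589 protein-coding genes. Processed pseudogenes, which can take reads of their parent genes, were higher in 201 of 753 and lower in 87.

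The annotated exons of each gene were merged and their lengths summed. The median of that length was 3703 bases for protein-coding genes at least 4-fold higher and 4839.5 bases for those at least 4-fold lower. Over all protein-coding genes tested it was 4430 bases. Median spans in the genome of the higher and lower genes were 19151 and 26841.5 bases against 23066. The median GC content of the longest annotated transcript was 49.8% and 51.9% against 49.7%.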
